A study of Rattus norvegicus with 33 samples.

Results

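Repeated dosing with carbon tetrachloride (CCl4) was followed in rat plasma by small RNA sequencing at Day 1, Day 3 and Day 5 after the first dose. The experiment holds 4 libraries, 1 per group, of the 29 distinct libraries in the study's tables of 6 liver toxicant models. Male Sprague-Dawley rats arrived at 6 weeks of age and were kept for a week before dosing. The 3 CCl4 groups received 300 mg/kg CCl4 in corn oil by gavage once a day, 5 rats per group, and the vehicle group received corn oil alone. The vehicle library also serves dexamethasone (DEX, 15 mg/kg in corn oil once a day), the other steatosis model of the study. The labels do not say on which day the vehicle rats were sampled, nor if a library stands for a single rat or for a pool. miRNAs were taken from the CCl4 count table when at least 1 of its 4 libraries held 20 reads, which kept 132 of 370 listed miRNAs and 99.6% to 99.8% of the reads. The read minimum left 5 miRNAs just inside, with a highest count of 20 or 21 reads, and 5 just outside, with 18 or 19.

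CCl4 is converted by a cytochrome P450 of centrilobular hepatocytes to a radical that attacks membrane lipids, and the liver responds with fat accumulation and cell death. Plasma miRNAs travel bound to Argonaute proteins, in vesicles or on lipoproteins, and those of damaged cells are added to a background from blood cells, endothelium and other tissues. miR-122 is the most abundant miRNA of hepatocytes and a widely used plasma sign of their injury. A miRNA recognises its targets mainly through its seed, bases 2 to 8 from the 5′ end, so miRNAs with the same seed form a family.

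Mature sequences were taken from RefSeq (GRCr8), where 118 of the 132 miRNAs matched. Those below carry the results that follow: miR-122-5p and miR-194-5p of the liver list, then liver miRNAs compared with a relative of the same seed, then members of the let-7 and muscle families. Capitals mark the seed.
miR-122-5p: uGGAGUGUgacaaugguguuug
miR-192-5p: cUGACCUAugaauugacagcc
miR-215: aUGACCUAugauuugacagaca
miR-194-5p: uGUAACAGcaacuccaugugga
miR-101b-3p: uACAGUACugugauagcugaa
miR-101a-3p: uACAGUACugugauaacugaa
miR-148a-3p: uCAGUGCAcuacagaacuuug
miR-152-3p: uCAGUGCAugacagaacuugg
let-7a-5p: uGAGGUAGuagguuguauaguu
let-7c-5p: uGAGGUAGuagguuguaugguu
let-7f-5p: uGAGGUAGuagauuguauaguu
miR-98-5p: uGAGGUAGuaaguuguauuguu
miR-1-3p: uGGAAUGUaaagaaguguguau
miR-1b: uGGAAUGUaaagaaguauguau
miR-206-3p: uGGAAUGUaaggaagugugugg

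The genes lie apart for most of these. Mir122 (mature miRNA at chr18:61028831-61028852, plus strand) stands alone among the measured miRNAs. Mir192 (chr1:212994232-212994252) has a copy of Mir194 on the same strand 194 bases before it. Mir215 (chr13:99383003-99383024) has the other Mir194 copy beside it, so the mature miR-194-5p can come from both loci. Reads of miRNAs that differ by 1 or a few bases may have been divided between them by the counting, which the sources used here do not describe, so values of such relatives carry that uncertainty.

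The vehicle library held 225741 miRNA reads, the Day 1 library 179087, the Day 3 library 185384 and the Day 5 library 98422. Detected miRNAs numbered 319 in vehicle, 299 at Day 1, 260 at Day 3 and 217 at Day 5, and the shallowest library was also the last in time. A count of 0 allows up to 3 reads, a share of 0.00133% in vehicle and 0.00305% at Day 5. Libraries were scaled by TMM, which takes a trimmed mean of ratios as the reference. A call rested on size alone: the ratio had to reach 2 (higher) or fall to 0.5 or less (lower), and its exact (Clopper-Pearson) 95% counting interval had to exclude 1. With 1 library per group there is no replicate spread and no p-value, and the intervals in brackets cover counting error only. No spike-in is named, so more of a miRNA in plasma and less of the others cannot be told apart, and neither can release from more cells and more release per cell.

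At Day 3 and Day 5 a few liver miRNAs filled most of the library. miR-148a-3p, made in liver and many other tissues, took 37.5% of reads in vehicle, 44.5% at Day 1, 45.9% at Day 3 and 49.7% at Day 5. miR-148a-3p, miR-122-5p and miR-192-5p together took 39.0% in vehicle, 51.2% at Day 1, 75.5% at Day 3 and 77.3% at Day 5. The part of the library left to all other miRNAs was smaller at each later time. The 10 measured let-7 family miRNAs together took 19.4% in vehicle, 15.9% at Day 1, 5.61% at Day 3 and 5.30% at Day 5. Ratios from total counts, with no composition scaling, lay below those from TMM by a log2 shift of 0.25 at Day 1, 1.31 at Day 3 and 1.46 at Day 5. The median log2 ratio of the 132 miRNAs was −0.02, −0.09 and 0.01 at Day 1, Day 3 and Day 5 with TMM, and −0.28, −1.42 and −1.41 with total counts.

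**Figure D1:**
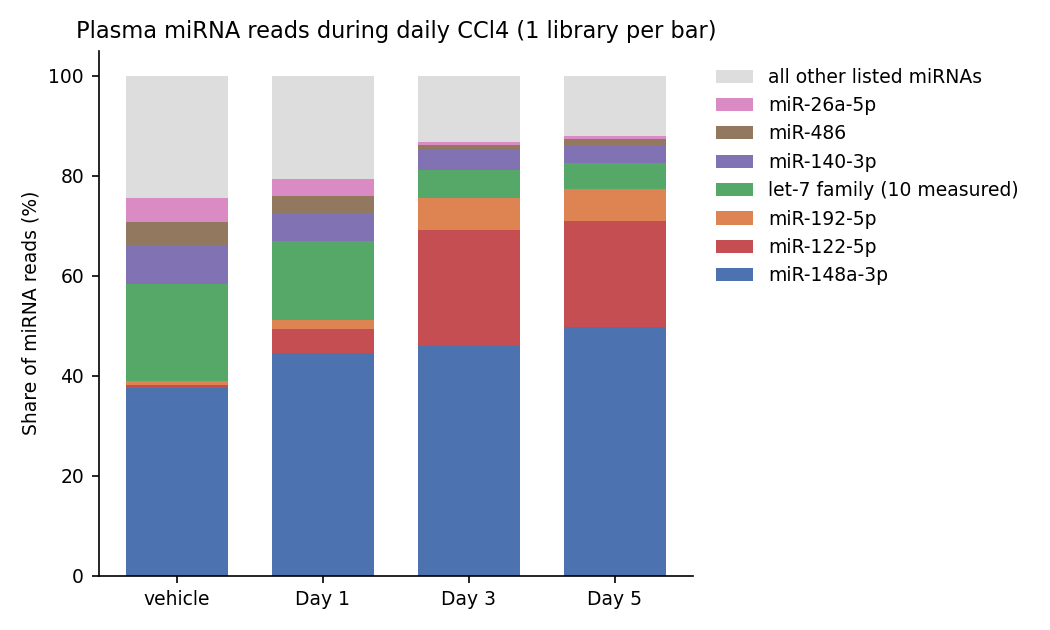
Share of miRNA reads (%) in the vehicle, Day 1, Day 3 and Day 5 libraries, 1 library per bar, divided by miRNA. The miR-122-5p block is 0.647% in vehicle and 23.3% at Day 3, and the let-7 block is 19.4% in vehicle and 5.61% at Day 3.

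At Day 1, after the first dose, 8 of 132 measured miRNAs were higher than in vehicle (6.06%) and 12 lower (9.09%). At Day 3, 24 were higher (18.2%) and 25 lower (18.9%), and at Day 5, 24 were higher (18.2%) and 22 lower (16.7%). Total counts gave 5 higher calls and 18 lower calls on Day 1. On Day 3 they gave 12 higher and 80 lower, and on Day 5 they gave 10 higher and 80 lower, so the balance of higher and lower depends on the scaling at every day. Vehicle libraries of the other models, with 14176 to 50319 reads, were set against the shared vehicle by the same rule with 1 TMM over all libraries. They had 10.6% (ANIT), 14.4% (APAP), 24.2% (MDA) and 29.5% (TAA) of these miRNAs called in either direction. With that same scaling the CCl4 libraries had 16.7% called at Day 1, which fell within the spread between vehicles, and 47% at Day 3 and 40.2% at Day 5, which were above it. The 3 days share 1 vehicle library, so a low or high value there enters all of them.

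By the days at which they were called, 5 miRNAs were higher at all 3 days and 5 were lower at all 3. Another 13 were higher and 10 lower at both Day 3 and Day 5 but not at Day 1. Calls made on Day 1 alone were 2 higher and 3 lower, on Day 3 alone 5 higher and 8 lower, and on Day 5 alone 6 higher and 5 lower, and 65 miRNAs were called at none. The 5 higher at every day were the liver miRNAs miR-122-5p, miR-192-5p and miR-3559-5p, together with miR-320-3p and miR-423-5p. The 5 lower at every day were the muscle miRNAs miR-1-3p, miR-1b and miR-206-3p, together with miR-145-5p and miR-214-3p of smooth muscle and mesenchymal cells.

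Of the lists examined, the liver list, also the largest, held the most miRNAs called higher at every day by number. miR-122-5p, miR-192-5p and miR-3559-5p were called from Day 1 and 6 more from Day 3. The Day 1 call of miR-3559-5p rested on 25 reads, against 18 in vehicle. It was not made with total counts or against each of the 5 vehicle libraries. Over all 132 measured miRNAs 6.06%, 18.2% and 18.2% were higher at the 3 days. Smaller lists had a larger part higher at Day 3, 4 of 5 in biliary and other epithelium and 3 of 4 in pancreas and gut. The latter holds miR-192-5p and miR-194-5p as well. The hepatocyte and liver list had 14 measured members, of which 3 were higher at Day 1, 9 at Day 3 and 9 at Day 5, and none was lower at any day. Their median log2 ratio was 0.47 at Day 1, 2.65 at Day 3 and 2.73 at Day 5. Total counts called 2, 8 and 8 of them higher at the 3 days and 2 lower at both later days, and gave medians of 0.22, 1.36 and 1.27. The summed share of the list was 42.5% in vehicle, 54.8% at Day 1, 78.4% at Day 3 and 79.6% at Day 5.

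miR-122-5p had 1461 reads in vehicle, 8689 at Day 1, 43282 at Day 3 and 20996 at Day 5. These are 0.647%, 4.85%, 23.3% and 21.3% of the reads. Its ratio to vehicle was about the same at Day 3 (85.0 to 94.4) and Day 5 (86.1 to 95.8), whose intervals overlapped, and far lower at Day 1 (8.44 to 9.44). The other arm of its hairpin, miR-122-3p, stayed just under the read minimum, with 2 reads in vehicle, 3 at Day 1, 18 at Day 3 and 9 at Day 5.

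miR-192-5p, a miRNA of liver, gut and kidney, had 2021 reads in vehicle, 3309 at Day 1, 11571 at Day 3 and 6171 at Day 5. Its ratio was 2.46 at Day 1 (2.32 to 2.60), 17.3 at Day 3 (16.5 to 18.1) and 19.3 at Day 5 (18.3 to 20.3). miR-194-5p, whose gene copies lie beside Mir192 and Mir215, had 52 reads in vehicle, 47 at Day 1, 182 at Day 3 and 89 at Day 5. It was not called at Day 1 (ratio 1.36, 0.894 to 2.05) and was 10.6-fold higher at Day 3 (7.73 to 14.7).

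miR-101b-3p, miR-22-3p, miR-22-5p and miR-3559-3p had the same sequence of calls as miR-194-5p, with no call at Day 1 and higher calls at both later days. miR-101b-3p had 189 reads in vehicle, 116 at Day 1, 591 at Day 3 and 313 at Day 5, with ratios of 0.92, 9.45 and 10.5 at the 3 days. miR-22-3p, a broadly expressed miRNA with high levels in liver, had 383, 360, 935 and 549 reads in the same order, and its ratio at Day 5 was 9.06 (7.94 to 10.3). Both arms of the miR-22 hairpin moved the same way, as miR-22-5p was 8.75-fold higher at Day 3 (5.11 to 15.6) and 7.32-fold at Day 5. Both arms of miR-3559 also rose, miR-3559-3p by 6.17-fold and miR-3559-5p by 6.55-fold at Day 3.

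miR-148a-3p, already the most abundant miRNA in vehicle, had 84615 reads in vehicle, 79629 at Day 1, 85085 at Day 3 and 48887 at Day 5, with ratios of 1.41, 3.04 and 3.65. With total counts these ratios were 1.19, 1.22 and 1.33, and it was called at no day. The 5 list members never called were miR-215, miR-101a-3p, miR-148a-5p, miR-455-3p and miR-455-5p. Below the read minimum were miR-122-3p, miR-192-3p, miR-194-3p and miR-193a-3p.

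**Figure D2:**
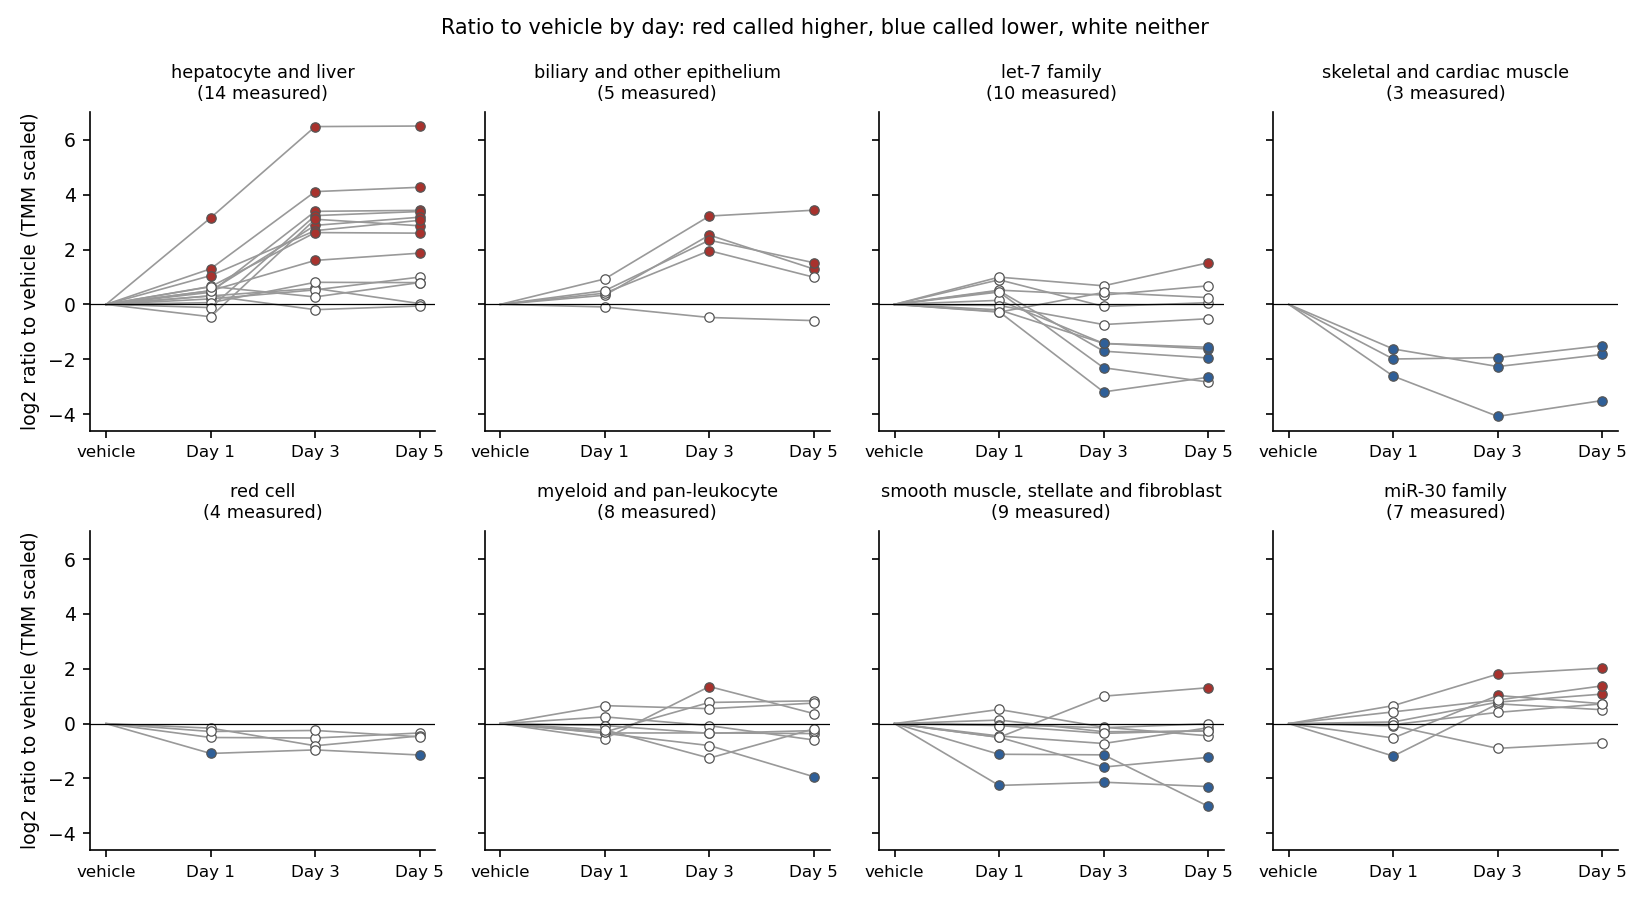
Log2 ratio to vehicle (TMM scaled, pseudocount 0.5 read) at Day 1, Day 3 and Day 5 for each measured member of 8 miRNA lists, 1 line per miRNA. Red points were called higher, blue lower and white neither by the rule of size, and 9 of the 14 liver members are red at Day 3 and at Day 5.

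Within a library, miRNAs can be compared without any scaling between libraries, although library preparation favours some sequences, so such ratios are no molar ratios. The ratio of miR-122-5p to miR-451-5p, a miRNA of red cells, was 1.41 in vehicle (1.30 to 1.53), 17.9 at Day 1 (16.3 to 19.6), 182 at Day 3 (160 to 207) and 163 at Day 5 (137 to 195). miR-122-5p over miR-192-5p was 0.723 in vehicle, 2.63 at Day 1, 3.74 at Day 3 and 3.40 at Day 5. miR-122-5p was thus below miR-192-5p in the shared vehicle and above it at all 3 days. It was also above miR-192-5p in the ANIT, APAP, MDA and TAA vehicles. Its lead was wider in MDA (shares of 3.34% and 0.444%) than at any CCl4 day, so all 3 days lay inside the spread of the vehicles. miR-192-5p over miR-194-5p was 38.9 in vehicle (29.5 to 52.2), 70.4 at Day 1 (52.8 to 96.0), 63.6 at Day 3 and 69.3 at Day 5.

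Relatives with the same seed separated in these libraries. miR-192-5p and miR-215 differ by C1A, A12U and C20A, counted from the 5′ end with the base of miR-192-5p first, and share the seed. miR-215 had 6201 reads in vehicle, 5119 at Day 1, 3072 at Day 3 and 1001 at Day 5, and its ratio to vehicle was 1.24, 1.50 and 1.02 at the 3 days. miR-192-5p over miR-215 was 0.326 in vehicle, 0.646 at Day 1, 3.77 at Day 3 (3.62 to 3.92) and 6.16 at Day 5 (5.77 to 6.60). Across the 5 vehicle libraries of the study this ratio lay between 0.178 and 0.379, so all 3 CCl4 libraries were above it and the order of the pair turned round at Day 3. The DEX libraries were also above that range, with 2063 reads of miR-192-5p and 2598 of miR-215 at Day 1. At Day 3 DEX had 1528 and 1511.

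miR-101b-3p and miR-101a-3p differ by the single change G16A. miR-101a-3p had 118 reads in vehicle, 82 at Day 1, 68 at Day 3 and 32 at Day 5 and was called at no day. Their ratio was 1.60 in vehicle (1.27 to 2.03), 1.41 at Day 1 (1.06 to 1.90), 8.69 at Day 3 (6.75 to 11.3) and 9.78 at Day 5 (6.79 to 14.5). The 5 vehicle libraries held 1.08 to 1.80, so Day 1 lay inside that range and the later days above it. miR-148a-3p over miR-152-3p (C9U, U10G, U20G) was 252 in vehicle, 477 at Day 1, 795 at Day 3 and 1164 at Day 5, all 3 days above the 148 to 258.5 of the vehicles. The DEX libraries were above the vehicles for this pair too, with 34996 and 77 reads at Day 1 and 23193 and 33 at Day 3. For miR-101b-3p and miR-101a-3p, DEX had 89 and 48 reads at Day 3, a far smaller difference than in CCl4. miR-148a-3p over miR-148b-3p (C9U, U10C) did not leave the vehicle range of 94.0 to 275, with 101 in vehicle, 122 at Day 1, 202 at Day 3 and 209 at Day 5.

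**Figure D3:**
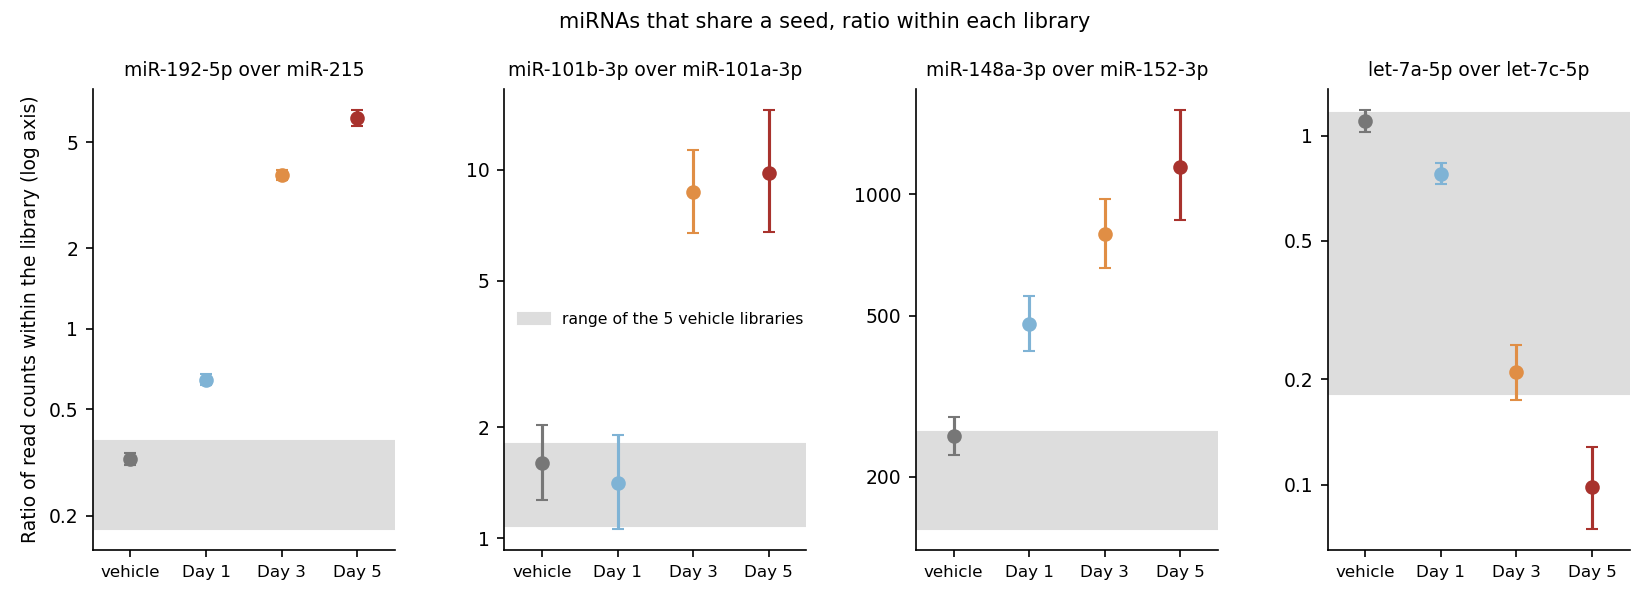
Ratio of read counts of miRNA pairs that share a seed (log axis) in the vehicle, Day 1, Day 3 and Day 5 libraries, with exact 95% counting intervals. The grey band is the range of the 5 vehicle libraries, and miR-192-5p over miR-215 lies above it at all 3 days, reaching 6.16 at Day 5.

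Of the measured miRNAs with a sequence, 43 fall into 15 seed families with at least 2 members, and 8 families had a member called at Day 5. In 1 family all members were called the same way, the muscle family of miR-1-3p, miR-1b and miR-206-3p. In 1 family, let-7, members were called in both directions.

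Most measured epithelial miRNAs were called higher at the same later days with TMM. Over all 132 measured miRNAs 18.2% were higher at Day 3 and 18.2% at Day 5. Of the biliary and other epithelium list, 5 members were measured, none was called at Day 1, 4 were higher at Day 3 and 3 at Day 5. Their median log2 ratios were 0.41, 2.34 and 1.29. Total counts called 3 higher and 1 lower at Day 3 and 1 each way at Day 5, and gave medians of 0.15, 1.03 and −0.20. miR-182, of the miR-183/96/182 cluster of epithelia and sensory cells, had 126 reads in vehicle, 160 at Day 1, 390 at Day 3 and 216 at Day 5, with ratios of 1.91, 9.35 and 10.8. Its neighbour miR-183-5p had 69, 65, 116 and 31 reads in that order and had ratios of 5.08 at Day 3 (3.74 to 6.95) and 2.84 at Day 5 (1.80 to 4.40). miR-200a-3p, which keeps epithelial cells from taking on mesenchymal features, had 37, 31, 71 and 14 reads, with ratios of 1.26, 5.80 and 2.39, and total counts put the Day 5 ratio at 0.87, in the other direction. By these ratios miR-200a-3p and miR-183-5p were highest at Day 3, while miR-182 held its level. miR-200b-3p was called higher at Day 3 alone. miR-203a-3p went the other way, with shares of 0.0399% in vehicle, 0.0113% at Day 3 and 0.00914% at Day 5. It was called at no day by the main rule, but lower at Day 5 with 1 TMM over all libraries (ratio 0.43). The rises in this list were partly shared with DEX. With that scaling, DEX at Day 3 was called higher than the same vehicle for miR-182 (2.46), miR-183-5p (3.28) and miR-200a-3p (2.92), but not miR-200b-3p (0.79). Set directly against DEX at Day 3, CCl4 was higher for miR-182 (2.86-fold) and miR-200b-3p (3.71-fold). miR-183-5p (1.16) and miR-200a-3p (1.50) were not called there. The other 11 listed members of this list were below the read minimum, miR-200c-3p (8, 10, 2 and 3 reads) and miR-429 (5, 3, 10 and 1) among them.

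Outside these lists, miR-378a-3p, encoded in an intron of the mitochondrial regulator gene Ppargc1b, had 1180 reads in vehicle, 867 at Day 1, 3032 at Day 3 and 1266 at Day 5. Its ratio was 1.10 at Day 1, 7.76 at Day 3 (7.26 to 8.31) and 6.78 at Day 5 (6.26 to 7.35). It was the 1 of 7 measured members of the lipid and energy metabolism list called higher, and 2 were lower at both later days, miR-103-3p and miR-26a-5p. Over all 132 measured miRNAs 18.2% were higher at each of these days, and 18.9% and 16.7% were lower. miR-375-3p, known from pancreatic islets, had ratios of 3.70 at Day 3 and 2.83 at Day 5 and was called higher at both, while total counts put these at 1.49 and 1.03, which was no call. In DEX it was called higher than the same vehicle at Day 1 (3.57), Day 2 (3.44) and Day 3 (2.45), with 1 TMM over all libraries.

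Early and lasting rises outside the liver list were those of miR-320-3p and miR-423-5p. miR-320-3p had 176 reads in vehicle, 314 at Day 1, 126 at Day 3 and 62 at Day 5, and ratios of 2.68 (2.22 to 3.24), 2.16 and 2.23. With total counts it was 2.25-fold higher at Day 1 and its ratio was 0.87 at Day 3 and 0.81 at Day 5, so its direction at the later days turned with the scaling. miR-423-5p had 105, 178, 122 and 52 reads in the same order, with ratios of 2.54, 3.51 and 3.13, and 2.14, 1.41 and 1.14 with total counts. Both rises were shared with DEX. Against the same vehicle, with 1 TMM over all libraries, both were called higher in DEX at Day 1, Day 2 and Day 3. The DEX ratios were 3.52, 2.08 and 3.11 for miR-320-3p and 3.40, 2.24 and 3.36 for miR-423-5p.

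Striated muscle miRNAs were lower at every day than in the shared vehicle. miR-1-3p had 414 reads in vehicle, 89 at Day 1, 28 at Day 3 and 18 at Day 5. miR-1b, its close relative, had 179, 19, 3 and 2 reads, and miR-206-3p, the skeletal muscle member of the family, had 98, 16, 8 and 5. Over all 132 measured miRNAs 9.09%, 18.9% and 16.7% were lower at the 3 days with TMM. All 3 measured members of the muscle list were called lower at all 3 days with both scalings, and most of the difference was present at Day 1. By ratio miR-1-3p was 3.10-fold lower at Day 1 (2.46 to 3.94), 4.89-fold on Day 3 and 3.64-fold on Day 5 (2.27 to 6.20), and between Day 5 and Day 1 none of the 3 was called with TMM, and 2 were lower with total counts. miR-133a-3p, another muscle miRNA, was under the read minimum with 14 reads in vehicle, 1 at Day 1, 0 at Day 3 and 1 at Day 5. The shared vehicle held the highest miR-1b level of the 5 vehicle libraries, and those levels spanned 5.66-fold (miR-1-3p), 6.92-fold (miR-1b) and 6.67-fold (miR-206-3p). No member was called lower against each of the 5 vehicles at any day.

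In the let-7 family, among the most widely expressed miRNAs of differentiated cells, members separated after Day 1. Over all 132 measured miRNAs 18.9% were lower at Day 3, and 16.7% were lower and 18.2% higher at Day 5. None of the 10 measured let-7 members was called at Day 1, 5 were lower at Day 3, and 4 were lower and 1 higher at Day 5. Their median log2 ratios were 0.30, −1.08 and −1.04. With total counts 7 were lower at Day 3 and 8 at Day 5 and none was higher. let-7a-5p had 1504 reads in vehicle, 1412 at Day 1, 152 at Day 3 and 61 at Day 5, and let-7f-5p had 11900, 6906, 1468 and 636. let-7a-5p was lower by 3.27-fold on Day 3 (2.77 to 3.90) and by 3.90-fold on Day 5 (3.02 to 5.13). miR-98-5p, encoded next to a let-7f copy on the X chromosome, had 179, 99, 6 and 4 reads and was 9.87-fold lower at Day 3 (4.45 to 27.3).

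Of the members lower at Day 3, let-7d-5p and let-7f-5p stayed so at Day 5 beside let-7a-5p and miR-98-5p. let-7e-5p was called at Day 3 alone, with 1 read there and 0 at Day 5. Its Day 5 interval did not exclude 1 in that shallower library, so the missing call shows no return. One member was called higher. let-7c-5p, which differs from let-7a-5p by A19G, had 1368 reads in vehicle, 1816 at Day 1, 724 at Day 3 and 619 at Day 5, and its ratio at Day 5 was 2.86 (2.60 to 3.15), a higher call. Total counts gave 1.04 there. With 1 TMM over all libraries the ratio was 1.93, which was no call, and the level lay inside the range of the 5 vehicle libraries. let-7a-5p over let-7c-5p was 1.10 in vehicle, 0.778 at Day 1, 0.210 at Day 3 and 0.0985 at Day 5 (0.0745 to 0.128). The 5 vehicle libraries ran from 0.182 to 1.16, so the Day 5 ratio was below all of them and the Day 3 ratio was inside. let-7f-5p over let-7g-5p (A12U, U18C) was 1.31 in vehicle, 1.39 at Day 1, 0.362 at Day 3 and 0.373 at Day 5, within the 0.254 to 1.31 of the vehicles at both later days. The shared vehicle stood at the top of that range.

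The arms of the let-7d hairpin also differed from the shared vehicle in their proportion. let-7d-5p had 458 reads in vehicle, 338 at Day 1, 56 at Day 3 and 23 at Day 5, while let-7d-3p had 132, 126, 55 and 33. The 5p arm over the 3p arm was 3.47 in vehicle (2.85 to 4.24), 2.68 at Day 1, 1.02 at Day 3 (0.689 to 1.50) and 0.697 at Day 5 (0.391 to 1.22). In the TAA vehicle the 5p arm was below the 3p arm too, with shares of 0.0786% and 0.106%. Day 3 thus lay inside the spread of the vehicles, and the Day 5 interval did not separate it from the TAA vehicle. Of the hairpins with both arms measured, miR-142 also differed from the shared vehicle. Its 5p arm over its 3p arm was 0.85 in vehicle (0.573 to 1.26) and 3.91 at Day 3 (1.98 to 8.41). The reads were 51 and 60 in vehicle and 43 and 11 at Day 3. The 5p arm was also the larger in the ANIT, APAP, MDA and TAA vehicles. Its lead was wider in APAP (shares of 0.0340% and 0.00424%) than at Day 3 (0.0232% and 0.00593%), so Day 3 lay inside the spread of the vehicles. miR-30a-5p over miR-30a-3p was 8.94 in vehicle (7.86 to 10.2), 3.95 at Day 1, 5.21 at Day 3 and 3.63 at Day 5 (3.05 to 4.33). The lead of the 5p arm was narrower than in the shared vehicle in DEX too, with 930 and 280 reads at Day 1 and 782 and 185 at Day 3.

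miR-26a-5p, which shares no seed with let-7, followed let-7f-5p. It had 10642 reads in vehicle, 6011 at Day 1, 1043 at Day 3 and 640 at Day 5, and was 3.38-fold lower at Day 3 (3.17 to 3.60) and 2.63-fold at Day 5. miR-128-3p, known from brain and also present in blood, had 607, 763, 80 and 43 reads, with ratios of 1.89, 0.40 and 0.45. miR-191a-5p, a platelet and blood cell miRNA, was 2.15-fold lower at Day 3 and 2.54-fold at Day 5. Levels of miR-26a-5p spanned 7.27-fold over the 5 vehicles and the shared vehicle was again the highest, and neither let-7a-5p, miR-98-5p, miR-26a-5p nor miR-128-3p was called lower against each vehicle.

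Of 9 measured members of the smooth muscle, stellate and fibroblast list, 2 were lower at Day 1, 3 at Day 3 and 3 at Day 5, against 9.09%, 18.9% and 16.7% of all measured miRNAs. One was higher at Day 5, miR-29a-3p, with a ratio of 2.47 that total counts put at 0.90, in the other direction. With total counts 2 were lower at Day 1, 8 at Day 3 and 8 at Day 5, and none was higher. miR-145-5p had 76 reads in vehicle, 23 at Day 1, 11 at Day 3 and 1 at Day 5, a ratio of 0.45 at Day 1 and 0.0832 at Day 5 (0.00208 to 0.477). Its cluster partner miR-143-3p had 2831, 2064, 763 and 370 reads and was not called, with ratios of 1.09, 0.81 and 0.83. miR-214-3p had 46, 6, 3 and 1 reads, and was 5.11-fold lower at Day 1 (2.18 to 14.6). miR-21-5p, known to rise in injured and fibrotic liver, was not called, with ratios of 0.95, 0.78 and 0.84.

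Most red cell and white cell miRNAs were not called under TMM. That held for most of the 132 measured miRNAs, of which 15.2%, 37.1% and 34.8% were called in either direction at the 3 days. miR-451-5p had 1036 reads in vehicle, 486 at Day 1, 238 at Day 3 and 129 at Day 5, and ratios of 0.70, 0.69 and 0.79. miR-486 had 10390, 6179, 1965 and 1204 reads, with ratios of 0.89, 0.57 and 0.73. Neither was called, and of the 4 measured red cell members miR-16-5p alone was lower, at Day 1 and Day 5. With total counts all 4 were lower at Day 3 and at Day 5, miR-451-5p with ratios of 0.28 and 0.29. Ratios of miR-451-5p over miR-23a-3p, used in the field as a sign of lysed red cells, were 0.458 in vehicle, 0.398 at Day 1, 0.534 at Day 3 and 0.822 at Day 5. Of 8 myeloid and pan-leukocyte members, miR-142-5p was higher at Day 3 and miR-142-3p lower at Day 5, and of 6 lymphocyte members miR-181b-5p was higher at Day 1 and miR-150-5p lower at Day 5, by 2.17-fold (1.78 to 2.67). Of 9 platelet and endothelium members, miR-191a-5p was lower at Day 3 and Day 5 and miR-23a-3p at Day 5. Total counts gave far more lower calls in these lists as well: 5 at Day 3 and 6 at Day 5 of the myeloid and pan-leukocyte members, 3 and 3 of the lymphocyte members, and 8 and 7 of the platelet and endothelium members, with none higher.

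Day 5 was set against Day 1 without the vehicle library. Of 132 measured miRNAs, 23 were higher at Day 5 than at Day 1 (17.4%) and 14 lower (10.6%), and 8 and 66 with total counts. Of the 14 liver members, 9 were higher and none lower, against 6 and 3 with total counts. miR-101b-3p was 11.4-fold higher at Day 5 than at Day 1 (9.15 to 14.2), miR-122-5p 10.2-fold (9.92 to 10.4), miR-194-5p 7.97-fold (5.54 to 11.6) and miR-192-5p 7.85-fold (7.53 to 8.20). miR-378a-3p was 6.15-fold higher and miR-182 5.69-fold. The counting intervals of miR-101b-3p and miR-122-5p overlapped here, although miR-101b-3p was not called at Day 1 against vehicle. With total counts miR-101b-3p was 4.91-fold higher and miR-122-5p 4.40-fold.

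Those lower at Day 5 than at Day 1 included 5 of the 10 let-7 family members, against 10.6% of all measured miRNAs. let-7a-5p, with 61 reads at Day 5 and 1412 at Day 1, was 5.50-fold lower (4.25 to 7.22). miR-98-5p was 5.88-fold lower (2.22 to 22.0) and miR-128-3p 4.21-fold (3.10 to 5.87). let-7e-5p and miR-224-5p, each with 0 reads at Day 5 and 20 at Day 1, were at least 1.58-fold lower, with 3 reads in place of 0. miR-676 had 0 reads at Day 5 and 22 at Day 1. In the miR-30 family, broadly expressed miRNAs of epithelial tissues, 4 of 7 members were higher at Day 5 than at Day 1, against 17.4% of all measured miRNAs. miR-30b-5p was higher by 3.22-fold (2.20 to 4.69). No member of the family was called higher with total counts.

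**Figure D4:**
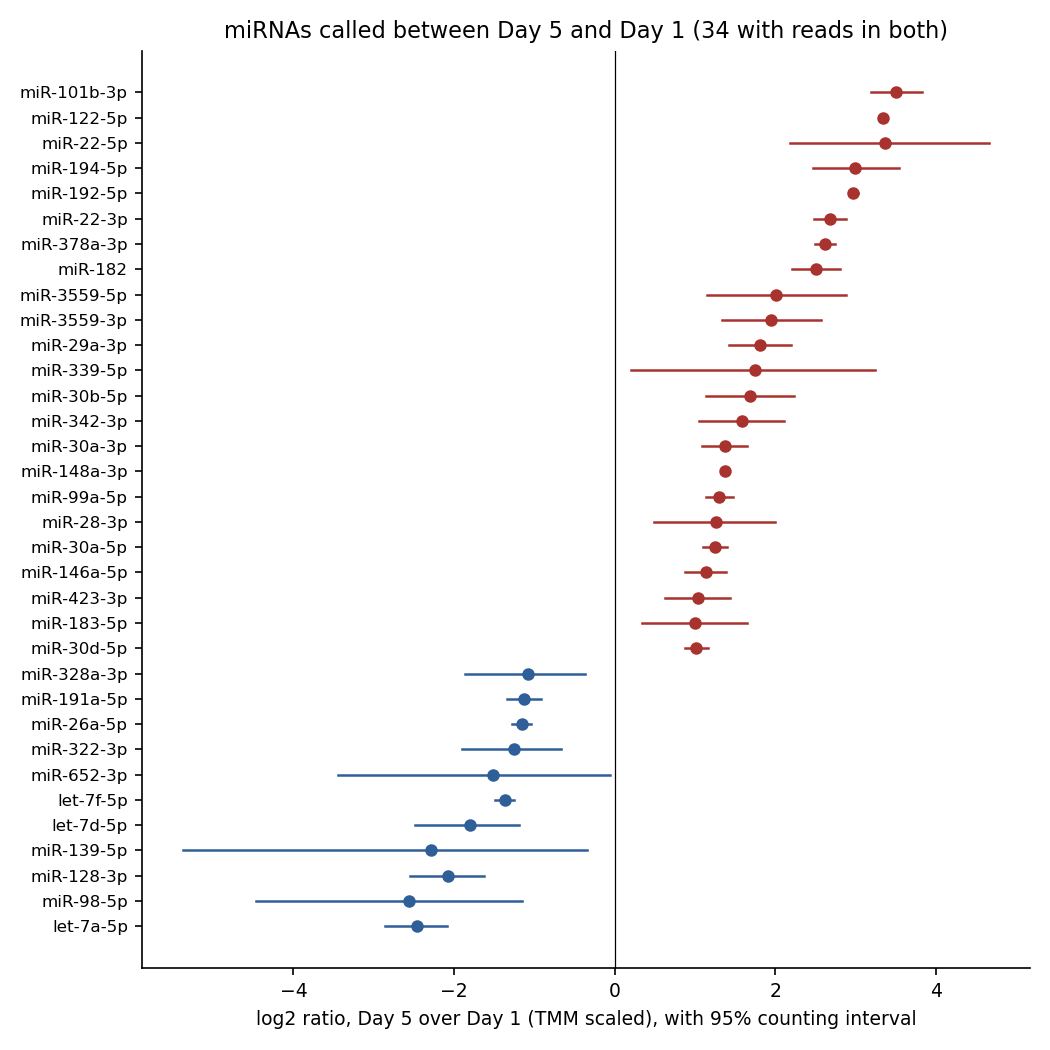
Log2 ratio of Day 5 over Day 1 (TMM scaled) with exact 95% counting intervals for the 34 called miRNAs that had reads in both libraries. Red points were higher and blue points lower at Day 5, with miR-101b-3p and miR-122-5p at the top and let-7a-5p, miR-98-5p and miR-128-3p among the lowest.

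Each CCl4 library was also set against each of the 5 vehicle libraries of the study, scaled by 1 TMM over all libraries. The other vehicles were corn oil in ANIT and carboxymethylcellulose in APAP, MDA and TAA. Called higher against all 5 were 3 miRNAs at Day 1, 14 at Day 3 and 11 at Day 5, and called lower 1, 3 and 2. The 3 at Day 1 were miR-122-5p, miR-192-5p and miR-320-3p. At both Day 3 and Day 5 they included miR-101b-3p, miR-194-5p, miR-22-3p, miR-182, miR-378a-3p, miR-30a-3p and miR-148a-3p beside miR-122-5p and miR-192-5p. Lower against all 5 were miR-100-5p at Day 1, miR-10a-5p, miR-149-5p and miR-199a-3p at Day 3, and miR-145-5p and miR-93-5p at Day 5. Over all 132 miRNAs with no threshold of size, 43 lay above and 11 below the range of the 5 vehicles at Day 1, 36 above and 35 below at Day 3, and 32 above and 39 below at Day 5.

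The shared vehicle held the lowest miR-122-5p level of the 5 vehicles, 4889 TMM-scaled CPM (read counts relative to the library's effective size), where the highest held 16207. CCl4 Day 1 stood at 44729, Day 3 at 329343 and Day 5 at 299837. For miR-192-5p and miR-101b-3p the shared vehicle was instead the highest of the 5. miR-182 varied least among the named rises, from 356 to 480 over the vehicles, against 824 at Day 1, 2968 at Day 3 and 3085 at Day 5.

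**Figure D5:**
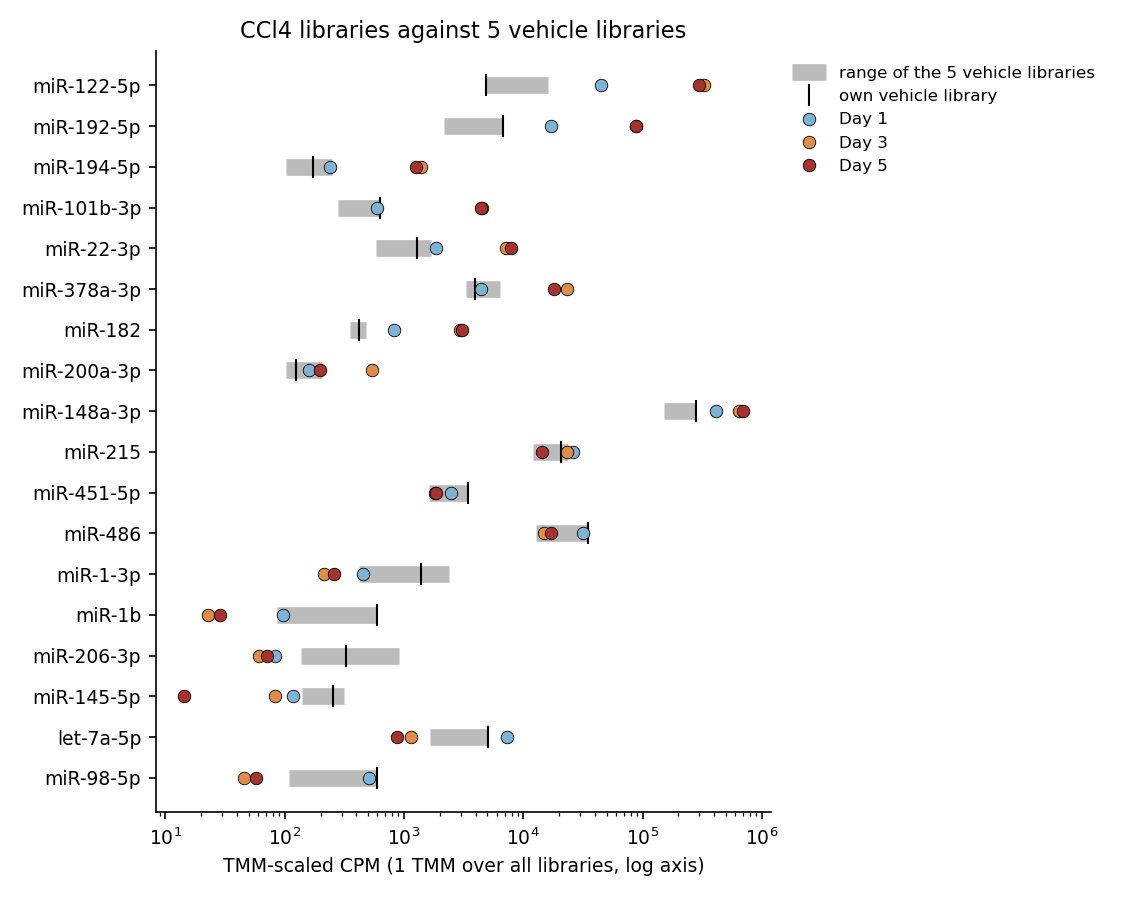
TMM-scaled CPM (1 TMM over all libraries, log axis) of 18 miRNAs in the CCl4 libraries (coloured points), with the range of the 5 vehicle libraries (grey bar) and the shared vehicle (black tick). miR-122-5p and miR-192-5p lie above the vehicles at all 3 days, and miR-451-5p and miR-486 lie within the grey bars.

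DEX was given with the same vehicle, so the libraries of the 2 compounds were compared directly at Day 1 and Day 3, scaled by 1 TMM over all libraries. At Day 1, 19 of 132 miRNAs were higher in CCl4 than in DEX (14.4%) and 3 lower (2.27%), 16.7% in either direction. At Day 3, 25 were higher (18.9%) and 27 lower (20.5%), 39.4% in either direction. miR-122-5p had 43282 reads in the CCl4 library and 7995 in the DEX library at Day 3, and was 4.57-fold higher in CCl4 (4.46 to 4.68). miR-192-5p separated further, by 6.39-fold (6.05 to 6.74). The intervals of miR-22-5p (7.73-fold, 3.33 to 22.0), miR-194-5p (6.67-fold, 4.31 to 10.8) and miR-101b-3p (5.60-fold, 4.48 to 7.08) overlapped that of miR-122-5p. Other liver miRNAs called higher in CCl4 than in vehicle separated less. miR-22-3p was 3.67-fold higher (3.16 to 4.27), miR-148a-3p 3.09-fold (3.05 to 3.14) and miR-3559-3p 2.08-fold (1.42 to 3.09). miR-3559-5p was not called (1.32, 0.776 to 2.27). The liver-list miRNAs miR-455-3p (7.03-fold, 3.01 to 20.1), miR-455-5p (5.99-fold, 4.10 to 9.02) and miR-148a-5p (2.19-fold, 1.02 to 5.10) were higher too. CCl4 never called them against vehicle, and DEX at Day 3 was called lower than vehicle (0.093, 0.152 and 0.490). Total counts put CCl4 over DEX at 3.09, 2.63 and 0.96 for them. With total counts miR-122-5p was 2.01-fold, miR-101b-3p 2.46-fold, miR-192-5p 2.81-fold, miR-194-5p 2.94-fold and miR-22-5p 3.40-fold higher. miR-22-3p (1.61) and miR-148a-3p (1.36) then stayed under 2, and miR-3559-3p turned to 0.91. The numbers of calls between the compounds were not recomputed with total counts.

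The order of the 2 compounds differed between days for several miRNAs. At Day 1 miR-122-5p had 8689 reads in CCl4 and 10743 in DEX, a ratio of 0.62 that was no call, and 0.43 with total counts. miR-192-5p and miR-101b-3p were not called then either. miR-98-5p had 99 reads in CCl4 and 17 in DEX at Day 1, 4.49-fold higher in CCl4 (2.67 to 8.01), and 6 in CCl4 and 35 in DEX at Day 3, 6.92-fold lower in CCl4. Against the shared vehicle, DEX was the library called for miR-98-5p at Day 1 (0.19, lower), and CCl4 was not (0.85). At Day 3 CCl4 was called lower (0.076) and DEX was not called (0.53). let-7a-5p, with 152 reads in CCl4 and 615 in DEX at Day 3, was 4.80-fold lower in CCl4 (4.01 to 5.77). miR-206-3p was lower in CCl4 at both days, by 7.63-fold at Day 1 (16 reads in CCl4, 94 in DEX) and 6.67-fold at Day 3. The red cell miRNAs miR-451-5p (2.47-fold) and miR-486 (2.49-fold) were lower in CCl4 at Day 3. miR-223-5p, a neutrophil miRNA, had 16 reads in CCl4 and 92 in DEX at Day 3 and was 6.82-fold lower in CCl4 (3.98 to 12.4). Against the shared vehicle it was called higher in DEX at Day 3 (4.77) and was not called in CCl4 (0.70).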

How the data were processed

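The deposited CCl4 table gives raw read counts per mature miRNA and a normalized signal that the authors made from those counts, naming DESeq 1.28.0 in the processing notes they submitted. The aligner, the counting tool, the build and the miRNA release are not given in the sources consulted. Per the labels, RNA came from 200 µL of EDTA plasma, and 15 PCR cycles were used without molecular identifiers being named, so counting intervals understate the error. The signal is listed for 169 miRNAs and, multiplied back, was off by more than 0.5 read for 10.1% to 23.7% of values per library, so counts were used. The CCl4 and DEX tables each hold a vehicle column. These had the same total and differed in 36 of 349 miRNAs by at most 4 reads, so they were counted as 1 library.

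Counts were scaled by TMM over the 4 libraries (edgeR 4.0.16, R 4.3.3), with a pseudocount of 0.5 read for log2 ratios, and intervals came from scipy 1.17.1. The rule of size was tested on simulated counts. Members, lists and tests were chosen with earlier results of these data known. Named are, per comparison, the 8 called higher and the 8 called lower whose interval lies farthest from 1, the 5 most abundant miRNAs of each library, and all measured liver, red cell and muscle members. Other miRNAs were named after their values were seen, as members of a list described, as relatives by seed, cluster or hairpin arm, or as a call of a small count. Alternatives were total counts, DESeq2 1.42.0 size factors, the authors' signal, 1 TMM over the 264 miRNAs listed in all 6 tables, read minimums of 10 and none, a ratio of at least 4, a pseudocount of 1, the DEX table's vehicle column and each of the 5 vehicles. Added after the data were seen were total counts without the 3 most abundant liver miRNAs (miR-122-5p, miR-148a-3p and miR-192-5p), the direct comparison with DEX and the ratios of seed relatives.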

Additional observations from a re-analysis of the deposited data

How the results depend on the processing

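No paired analysis was possible because CCl4 has 1 library per group, and leaving out a library was not done for the same reason. Depth limits Day 5 most, where 3 measured miRNAs had 0 reads.

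Total counts gave 5 higher on Day 1, 12 higher with 80 lower on Day 3, 10 with 80 on Day 5, and 8 with 66 for Day 5 against Day 1. 1 TMM over all libraries gave 43 lower on Day 3, 13 higher with 40 lower on Day 5, and 12 with 32 for Day 5 against Day 1. A ratio of at least 4 left 1 higher with 3 lower on Day 1, 12 with 10 on Day 3, 11 with 7 on Day 5, and 9 with 7 for Day 5 against Day 1. Against each of the 5 vehicles, Day 1 had 3 higher with 1 lower, Day 3 had 14 with 3, and Day 5 had 11 with 2. With no read minimum 39 of 369 were higher at Day 3. Every miRNA called lower by TMM was also called with total counts, and every one called higher with total counts was called higher by TMM. DESeq2 size factors, the authors' signal, a minimum of 10 reads, the DEX table's vehicle column and total counts without the 3 leading liver miRNAs kept every count within 1.5 times.

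Of 1465 recomputed log2 ratios of named miRNAs, 1167 stayed inside the counting interval, 293 moved and 5 turned, all with total counts. The turned log2 ratios were −0.20 at Day 3 and −0.30 at Day 5 for miR-320-3p, −0.17 at Day 5 for miR-200a-3p, −0.15 at Day 5 for miR-29a-3p, and −0.19 at Day 5 against Day 1 for miR-183-5p. Of all called miRNAs, 4 of 49 at Day 3, 7 of 46 at Day 5 and 4 of 37 at Day 5 against Day 1 turned with total counts, none with 1 TMM over all libraries. The cause was not tested.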

Other observations

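Several liver-list miRNAs under the read minimum can be read only as counts. miR-193a-3p had 0 reads in vehicle, 0 at Day 1, 3 at Day 3 and 2 at Day 5, and miR-194-3p had 0, 0, 2 and 0. miR-192-3p, the other arm of the miR-192 hairpin, had 3, 0, 0 and 2 reads while miR-192-5p had 11571 at Day 3. miR-34a-5p, a p53 target known to rise in stressed liver cells, had 5 reads in vehicle and 0 at each CCl4 day.

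Neighbouring miRNAs did not always move together. miR-23a-3p, miR-27a-3p and miR-24-3p are encoded in 1 cluster (and miR-24-3p in a further one), and at Day 5 their ratios to vehicle were 0.44, 1.10 and 1.21. miR-25-3p, miR-93-5p and miR-106b-3p, encoded within 410 bases, had ratios of 1.23, 0.28 and 0.86. miR-99b-5p and let-7e-5p are 173 bases apart, and both were called lower at Day 3, with 22 reads at Day 3 and 180 in vehicle for miR-99b-5p and 1 and 22 for let-7e-5p.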
